A study of Mus musculus with 17 samples.

Results

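Core and output genes of the circadian clock were followed in the liver of mice and in hepatocytes isolated from mice: Arntl, Clock, Npas2, Per1, Per2, Per3, Cry1, Ciart, Nr1d1 and Dbp. They were chosen by gene symbol, with earlier results of these data known. All 10 were present among the 49315 genes of the liver files and the 15632 genes of the hepatocyte files. In liver, 4 libraries came from SMSrKO mice, which lack SMSr, the product of Samd8, and 4 from wild-type (WT) mice, and both groups had received a high-fat diet and fructose in the drinking water for 16 weeks. In hepatocytes, isolated by collagenase from mice 2 months old, 3 libraries came from Sms1/Sms2/Smsr-tKO mice (tKO), 3 from Sms1/Sms2-dKO mice (dKO) and 3 from WT mice. The labels do not state whether the lesions were whole-body or confined to a cell type, nor the sex or the strain. No label gives the time of day at which tissue was taken, so a difference in sampling time and a difference in genotype cannot be told apart for any value below.

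The mammalian clock is a transcriptional feedback loop. BMAL1 (the product of Arntl) pairs with CLOCK or NPAS2 and activates genes through E-box elements, among them the Per and Cry genes, whose proteins then repress that activation. Nr1d1 encodes REV-ERBα, which is induced by the same pair and in turn represses Arntl, and Dbp is an output transcription factor of the loop that acts through D-box elements. In liver these RNAs rise and fall over the day, with Arntl, Clock and Npas2 peaking at a time when Dbp and Nr1d1 are low, while Clock itself cycles more weakly.

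Promoter windows are given for the genes called in hepatocytes whose window held at least 1 E-box, E-prime box or D-box. They run from 250 bases before to 50 bases after a RefSeq transcript start (GRCm38.p6), are written 5′ to 3′ on the gene's strand, and carry E-boxes (CACGTG), E-prime boxes (CACGTT) and D-boxes (TTANGTAA), searched on both strands, in capitals. The 5 windows were chosen after the values were seen. Ciart lies at chr3:95882179-95882478 on the minus strand, Per1 at chr11:69098699-69098998 on the plus strand, Cry1 at chr10:85185005-85185304, Nr1d1 at chr11:98775328-98775627 and Per3 at chr4:151044616-151044915, the last 3 on the minus strand.
Ciart: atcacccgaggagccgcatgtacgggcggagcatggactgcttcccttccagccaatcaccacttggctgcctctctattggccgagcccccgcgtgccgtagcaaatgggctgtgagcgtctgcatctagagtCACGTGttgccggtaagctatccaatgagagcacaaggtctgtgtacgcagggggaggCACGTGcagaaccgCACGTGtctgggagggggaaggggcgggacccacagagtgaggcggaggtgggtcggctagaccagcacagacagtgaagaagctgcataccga
Per1: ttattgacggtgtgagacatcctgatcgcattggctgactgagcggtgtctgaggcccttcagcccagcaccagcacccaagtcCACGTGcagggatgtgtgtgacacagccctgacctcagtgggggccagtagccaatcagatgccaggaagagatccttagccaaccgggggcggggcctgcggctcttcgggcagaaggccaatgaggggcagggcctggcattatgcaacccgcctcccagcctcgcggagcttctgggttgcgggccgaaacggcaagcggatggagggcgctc
Cry1: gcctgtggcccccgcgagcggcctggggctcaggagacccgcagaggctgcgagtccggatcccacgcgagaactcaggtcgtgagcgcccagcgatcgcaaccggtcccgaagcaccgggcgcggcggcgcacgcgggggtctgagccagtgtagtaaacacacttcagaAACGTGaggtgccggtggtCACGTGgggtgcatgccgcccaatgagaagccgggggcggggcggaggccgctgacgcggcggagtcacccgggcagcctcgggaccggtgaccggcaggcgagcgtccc
Nr1d1: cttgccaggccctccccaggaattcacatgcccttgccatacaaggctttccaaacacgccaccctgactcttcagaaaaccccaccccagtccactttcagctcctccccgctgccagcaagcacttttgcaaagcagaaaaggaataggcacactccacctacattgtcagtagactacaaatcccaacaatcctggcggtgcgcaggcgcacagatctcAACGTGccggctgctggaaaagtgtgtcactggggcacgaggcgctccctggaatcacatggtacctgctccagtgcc
Per3: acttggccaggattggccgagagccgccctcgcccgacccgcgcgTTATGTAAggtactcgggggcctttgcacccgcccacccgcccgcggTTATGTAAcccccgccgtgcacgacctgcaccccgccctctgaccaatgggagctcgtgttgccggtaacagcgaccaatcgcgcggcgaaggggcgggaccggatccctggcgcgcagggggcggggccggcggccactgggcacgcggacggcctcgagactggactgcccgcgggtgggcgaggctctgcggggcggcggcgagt

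The Ciart window held 3 E-boxes, at −116, −58 and −44 from the transcript start. A single E-box stood at −166 in the Per1 window and at −60 in the Cry1 window, and an E-prime box stood at −79 in Cry1 and at −28 in Nr1d1. The Per3 window held 2 D-boxes, at −205 and −158, and none of the E-box letters. Of all 32851 promoter windows of this length, 7.15% held at least 1 E-box and 0.0883% held 3 or more, 4.68% held an E-prime box, and 2.32% held a D-box and 0.0822% held 2 or more. The windows shown were kept because they held such letters, so these shares give scale only and are no test of enrichment. A match of letters is a description of the sequence and not evidence of binding. Windows were found for 9 of the 10 genes. None of the E-box, E-prime box and D-box letters stood in the window of Dbp, in another window of Per1 or in the windows of Arntl, Clock and Npas2.

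Depth ranged over 24391627 to 47351126 counts per liver library and 9221488 to 9665309 expected counts per hepatocyte library. Libraries are not tied to separate animals by the labels, so p-values measure the spread among these libraries, and that spread may be technical. Liver had a common biological coefficient of variation of 20.3% and hepatocytes one of 3.52%, and the counts of replicate hepatocyte libraries differed by only 1.57 to 2.87 times the counting noise (chi-square per degree of freedom), against 27.5 to 214 in liver. For SMSrKO mice the extract protocol speaks of sWAT and the tissue label of liver; hepatocyte markers summed to 77998 to 88628 CPM in SMSrKO libraries and 55468 to 72796 CPM in WT libraries (CPM being counts relative to the library total after TMM scaling), and the 8 adipocyte markers summed to 44.4 to 51.7 CPM in SMSrKO and 44.2 to 131 CPM in WT livers. Of those 8 genes Lep was at 0 in every liver library, and of the 4 tested Fabp4 alone was called by edgeR, lower in SMSrKO at 9.33 ± 0.868 CPM against 16.9 ± 2.86 CPM in WT livers (edgeR adjusted p = 0.0434). Inflammatory mediators summed to 201 to 314 CPM in the SMSrKO livers and 337 to 401 CPM in WT livers 2 to 4, but to 5665 CPM in WT1, which stood apart. The targeted genes were not lower in all libraries that should lack them: Samd8 averaged 54.2 ± 3.67 CPM in SMSrKO and 42.6 ± 6.38 CPM in WT liver (SD, n = 4 each), and 101 ± 2.94 CPM in tKO and 69.7 ± 3.57 CPM in WT hepatocytes (SD, n = 3 each), with Sgms1, the gene of SMS1, at 58.7 ± 3.31 CPM in tKO, 90.5 ± 5.55 CPM in dKO and 49.7 ± 3.34 CPM in WT hepatocytes. Sgms2, the gene of SMS2, was lower in the knockouts, at 149.6 ± 7.12 CPM in tKO and 150.0 ± 15.8 CPM in dKO against 183 ± 7.69 CPM in WT hepatocytes (edgeR adjusted p = 3.83e-06 and 6.22e-06). The RNA levels of the 3 genes therefore do not check the genotype labels.

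The first comparison asks how loss of SMSr bears on clock RNAs in the livers of mice on the fructose diet. Dbp and Nr1d1 were the only members whose SMSrKO and WT values did not overlap, both with the SMSrKO values above, and Arntl and Cry1 had lower means in SMSrKO livers. None of these passed the test: 0 of the 9 members tested were called by edgeR's quasi-likelihood test at an adjusted p under 0.05, where 0.234% of all 15820 genes were called, and 0 were called at 2-fold or more, where 0.133% of all genes were. Groups that did not overlap were found in 2 of 9 members and in 8.12% of all genes. At an unadjusted p under 0.05 the same test picked 3 of the 9, Dbp, Nr1d1 and Cry1, beside 13.1% of all genes.

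**Figure D1:**
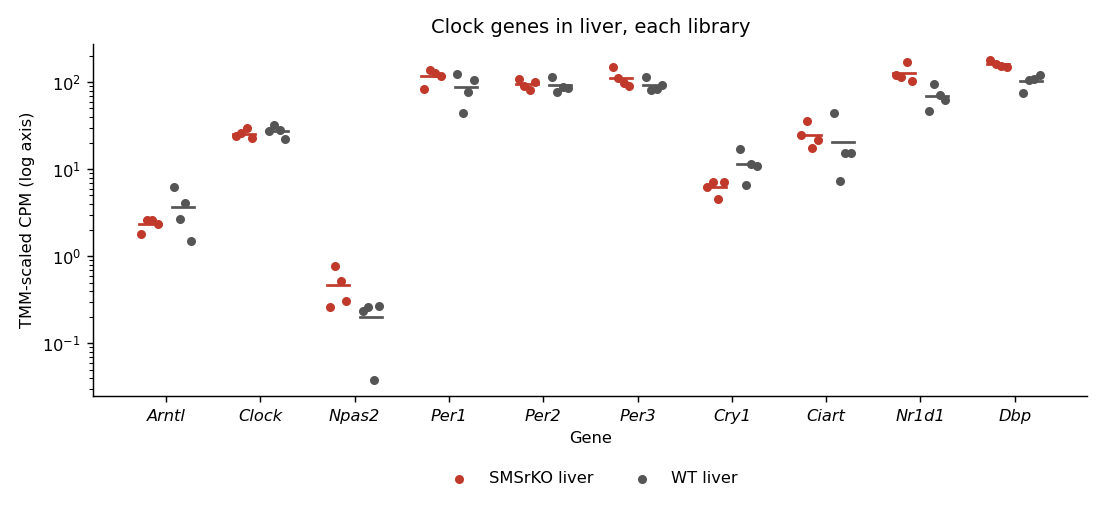
Level of each clock gene in each liver library, in TMM-scaled CPM on a log axis, with SMSrKO in red to the left of WT in grey; the short line is the group mean. Dbp and Nr1d1 are the 2 genes whose groups part, with Dbp at 150 to 180 CPM in SMSrKO and 75.6 to 121 CPM in WT livers.

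Among the activators, Arntl (ENSMUSG00000055116; GRCm38 chromosome 7, 113207465 to 113314126, plus strand) is the subunit without which the loop stops in mice. Its level was 1.82, 2.60, 2.65 and 2.33 CPM in SMSrKO livers 5 to 8, against 6.33, 2.65, 4.14 and 1.51 CPM in WT livers 1 to 4. The groups overlapped, with the highest and the lowest value both in WT livers, and the log2 fold change was −0.64 ± 0.380 (SE; edgeR adjusted p = 0.507). Without WT1 it was −0.23. Clock (chromosome 5, 76209868 to 76304792, minus strand), the partner with histone acetyltransferase activity, had 24.1, 26.3, 29.6 and 22.9 CPM in SMSrKO livers, against 27.7, 32.5, 27.9 and 22.05 CPM in WT livers. These values lay close together, and Clock had the smallest within-group spread of the members in WT livers, a coefficient of variation of 15.5%. Npas2 (chromosome 1, 39193731 to 39363236, plus strand), the alternative partner of BMAL1, gave only 6, 22, 16 and 12 counts in SMSrKO livers and 11, 8, 1 and 9 counts in WT livers. It did not pass the filter on low counts and was not tested.

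Among the repressors, Per1 (chromosome 11, 69095217 to 69109960, plus strand), which also responds within minutes to stress hormones and serum, had 84.5, 137, 128 and 118 CPM in SMSrKO livers, against 125, 44.4, 77.5 and 107 CPM in WT livers. The ranges overlapped, and the log2 fold change was 0.40 ± 0.298 (edgeR adjusted p = 0.601). Per2 (chromosome 1, 91415982 to 91459324, minus strand), the period protein whose loss shortens and then abolishes rhythms in mice, averaged 95.2 ± 12.0 CPM in SMSrKO and 91.7 ± 16.0 CPM in WT livers (SD, n = 4 each). Per3 (chromosome 4, 151003652 to 151044665, minus strand), the least essential of the period genes, averaged 113 ± 26.7 CPM in SMSrKO and 93.0 ± 14.8 CPM in WT livers. Neither passed the test, with edgeR adjusted p-values of 0.891 for Per2 and 0.511 for Per3.

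Cry1 (chromosome 10, 85131700 to 85185064, minus strand) encodes the cryptochrome that represses CLOCK and BMAL1 most strongly and late in the cycle. It had 6.30, 7.08, 4.58 and 7.06 CPM in SMSrKO livers, against 16.9, 6.59, 11.4 and 10.9 CPM in WT livers. All WT livers other than WT2 lay above every SMSrKO liver, and the log2 fold change was −0.88 ± 0.262 (edgeR adjusted p = 0.210), or −0.62 without WT1. Ciart (chromosome 3, 95878503 to 95882251, minus strand), also known as CHRONO, a repressor that binds BMAL1, had 24.6, 36.3, 17.4 and 21.6 CPM in SMSrKO livers, against 44.0, 7.35, 15.4 and 15.4 CPM in WT livers. Its coefficient of variation in WT livers, 78.4%, was the largest of the members there, other members tested ranging down to 15.5%. The log2 fold change of 0.27 ± 0.514 (edgeR adjusted p = 0.854) was 0.97 without WT1 and 0.00 without WT2, neither of them called.

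Nr1d1 (chromosome 11, 98767932 to 98775333, minus strand) had 123, 114, 169 and 102 CPM in SMSrKO livers, against 46.8, 96.5, 70.6 and 62.8 CPM in WT livers. Every SMSrKO value lay above every WT value, although SMSrKO8 exceeded WT2 by little. This amounts to a log2 fold change of 0.88 ± 0.226 (edgeR adjusted p = 0.166). Nr1d1 shares 263 exonic bases, 8.55% of its own, with the oppositely oriented Thra, which encodes a thyroid hormone receptor, and whether counting used strand is not given, so part of its counts may belong to Thra. Thra averaged 24.3 ± 4.05 CPM in SMSrKO and 18.2 ± 3.14 CPM in WT livers, well below Nr1d1 in CPM.

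Dbp (chromosome 7, 45705088 to 45710203, plus strand) had 180, 163, 156 and 150 CPM in SMSrKO livers, against 75.6, 105, 109 and 121 CPM in WT livers. All 4 SMSrKO livers lay above all 4 WT livers, with a log2 fold change of 0.66 ± 0.138 (edgeR adjusted p = 0.0964) and the smallest p of the members. Dbp was called (edgeR adjusted p = 0.0349) when WT1 was left out, a fit that called 0.682% of all 15988 genes it tested, and its log2 fold change was then 0.54 ± 0.0914. DESeq2 called Dbp (adjusted p = 0.00235), Nr1d1 (0.00903) and Cry1 (0.0478), 3 of 9 members beside 2.83% of all 16261 genes. Dbp shares 539 exonic bases, 18.0% of its own, with the oppositely oriented Sphk2, a sphingosine kinase gene, so part of its counts may belong to Sphk2. Sphk2 averaged 60.4 ± 10.7 CPM in SMSrKO and 60.9 ± 4.99 CPM in WT livers, below Dbp. Its log2 fold change in liver was −0.01 ± 0.125 (edgeR adjusted p = 0.976).

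WT1 had the highest WT value of Arntl, Cry1, Ciart, Per1, Per2 and Per3 and the lowest of Dbp and Nr1d1. This is the library with the high inflammatory sum, and the part of either that sum or an unlabelled sampling time in these values was not tested. Macrophage markers summed to 829 to 2006 CPM in SMSrKO and 1331 to 1717 CPM in WT livers, and endothelial markers to 753 to 949 CPM in SMSrKO and 839 to 1017 CPM in WT livers. In both lists 0 of 12 genes were called by edgeR or DESeq2, and 0 were at an unadjusted p under 0.05. Of 12 inflammatory mediators tested, 0 were called by edgeR or DESeq2 and 6 were at an unadjusted p under 0.05. Hepatocyte marker sums, given above, did not overlap between the groups. Of those 10 markers edgeR called 0 and DESeq2 1, and 2 were at an unadjusted p under 0.05. Immediate early genes summed to 658 to 871 CPM in SMSrKO and 683 to 1250 CPM in WT livers. Of 23 tested, 0 were called by edgeR, 8 were at an unadjusted p under 0.05 and 6 were called by DESeq2. Among all genes in this comparison, edgeR called 0.234% and DESeq2 2.83%, and 13.1% were at an unadjusted p under 0.05. In bulk samples, fewer cells of a type and less RNA per cell cannot be told apart. Genes that respond to glucocorticoids and fasting, some of which also cycle, summed to 4834 to 7404 CPM in SMSrKO and 4050 to 9595 CPM in WT livers. Of these 16 genes only Klf9, a glucocorticoid-induced and rhythmic transcription factor, was called in liver by edgeR, at 151 ± 12.6 CPM in SMSrKO and 103 ± 5.55 CPM in WT livers (edgeR adjusted p = 0.0434), while 6 were at an unadjusted p under 0.05 and DESeq2 called 4, and the part of such signals in the Dbp and Nr1d1 values was not tested.

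A ratio of genes within a library needs no scaling between libraries. The ratio of Dbp to Arntl in TPM was 248, 158, 148 and 162 in SMSrKO livers, against 30.0, 99.4, 66.0 and 202 in WT livers. The ratio of Nr1d1 to Arntl was 164, 108, 156 and 107 in SMSrKO livers, against 18.1, 89.0, 41.7 and 102 in WT livers. In the Dbp ratio every SMSrKO liver lay above WT1, WT2 and WT3, while WT4 lay within the SMSrKO range, and in the Nr1d1 ratio all SMSrKO livers lay above all WT livers, by little at the edge. The ratio of Per2 to Cry1 was 7.23 to 10.1 in SMSrKO livers and 3.87 to 6.67 in WT livers, with no overlap. These ratios were formed after the separate values were seen and were not tested.

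**Figure D2:**
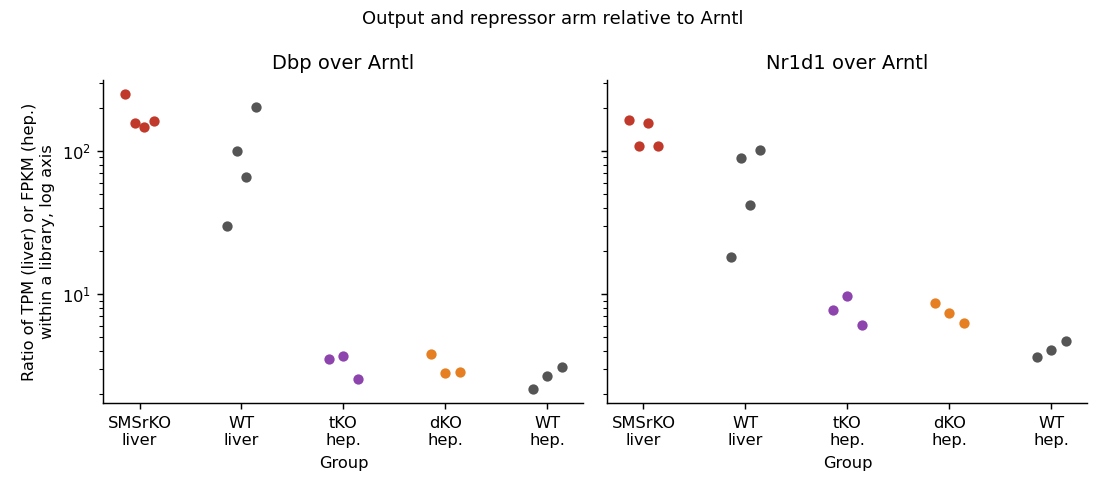
Ratio of Dbp (left) and Nr1d1 (right) to Arntl within each library, from TPM in liver and FPKM in hepatocytes, on a log axis, each point a library. Liver libraries lie at 18.1 or more in both panels and hepatocyte libraries at 9.68 or less. The gene lengths behind TPM and FPKM differ, for Arntl 7523 bases in liver and 2921 in hepatocyte library WT1. The ratios are therefore comparable only within liver or within hepatocytes.

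Per length of transcript, the order of the members in liver was nearly the same in both groups. Dbp led with 117 ± 4.96 TPM in SMSrKO and 77.2 ± 17.3 TPM in WT livers (SD, n = 4 each), followed by Nr1d1 with 89.0 ± 20.5 TPM and 50.9 ± 17.6 TPM. Per1 and Per2 came next, at 45.0 ± 9.48 TPM and 35.1 ± 4.45 TPM in SMSrKO livers and at 34.9 ± 13.1 TPM and 34.9 ± 4.39 TPM in WT livers, then Per3 and Ciart at 25.2 and 23.7 TPM in SMSrKO livers and 21.6 and 19.8 TPM in WT livers. Cry1 and Clock lay near 4 TPM in SMSrKO livers, at 4.05 ± 0.803 and 4.04 ± 0.470 TPM, and at 7.58 ± 2.43 and 4.50 ± 0.799 TPM in WT livers. Arntl, at 0.676 ± 0.120 TPM in SMSrKO and 1.07 ± 0.556 TPM in WT livers, and Npas2, at 0.211 ± 0.105 TPM and 0.0961 ± 0.0543 TPM, stood apart below all others. From Dbp down to Ciart the ranges of neighbours overlapped, except that Per1 lay wholly below Nr1d1 in SMSrKO livers.

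By likeness of pattern over the 8 liver libraries (Pearson correlation of log2 CPM among 9743 genes), the genes closest to Arntl were Acpp (0.928), Qsox1 (0.920), Mctp2 (0.917), Zdhhc7 (0.916) and Trmt2a (0.913). Those closest to Dbp were Cebpa (0.987), the gene of a liver transcription factor, Bloc1s2 (0.979), Pcsk4 (0.971), Bche (0.966) and Cyp2c37 (0.960). These are the top values out of many genes over 8 points that share the WT1 library and the group difference, and carry no test.

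The hepatocyte comparisons ask how loss of Sms1 and Sms2, and of Smsr in addition, bears on the same RNAs. The dKO and the tKO groups are each set against the same 3 WT libraries, so their fold changes against WT are not independent and are given side by side.

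In dKO hepatocytes, Nr1d1, Ciart, Per1, Dbp and Cry1 were higher and Per3 was lower than in WT, while the activators Arntl and Clock, and Per2, did not pass the test. Of 9 members tested, 6 were called by edgeR's quasi-likelihood test, beside 44.0% of all 11471 genes. The 5 higher and 1 lower member stood beside 24.0% of all genes called higher and 20.0% called lower, and no member reached 2-fold, as 7.40% of all genes did. Groups did not overlap in 6 of 9 members and in 51.9% of all genes. When every gene was given the spread (common dispersion) of the liver libraries, the test was edgeR's likelihood ratio test. Only Nr1d1 then remained called, 1 of 9 members beside 9.20% of all genes.

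In tKO hepatocytes, Nr1d1, Cry1, Dbp and Per1 were higher and Per3 was lower than in WT. The 5 of 9 members called stood beside 47.4% of all genes, a share near the background, with 4 members beside 25.6% of genes called higher and 1 beside 21.8% called lower, and none at 2-fold beside 7.82%. Groups did not overlap in 7 of 9 members and in 53.4% of all genes. With the spread of the liver libraries Nr1d1 alone remained called, where 10.6% of all genes were.

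Between tKO and dKO hepatocytes, Ciart, Per1 and Per2 were lower and Cry1 was higher in tKO, 4 of 9 members beside 29.5% of all genes. The 1 higher member stood beside 14.3% of genes called higher and the 3 lower members beside 15.2% called lower, with 0 members and 2.72% of genes at 2-fold. Groups did not overlap in 3 of 9 members, Ciart, Per1 and Per2, and in 39.8% of all genes. With the spread of the liver libraries 0 of 9 members and 2.84% of all genes were called, and 0 members were at an unadjusted p under 0.05.

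**Figure D3:**
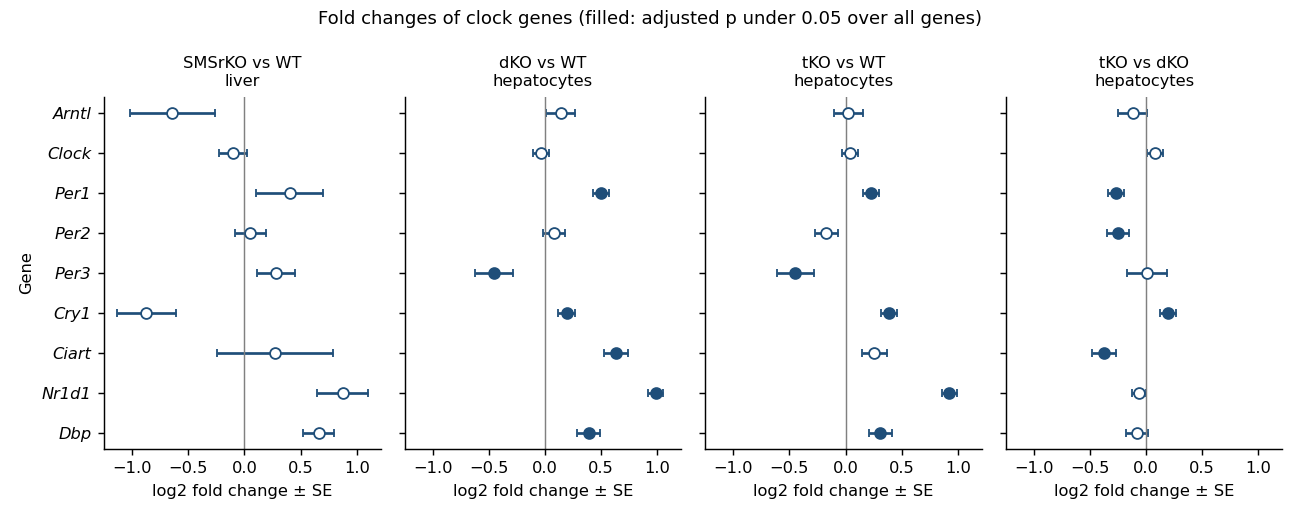
log2 fold change of each tested clock gene in the 4 comparisons, with its standard error; filled points had an edgeR adjusted p under 0.05 over all genes. In the liver panel all points are open, and in both hepatocyte panels against WT the Nr1d1 point lies farthest to the right, at 0.99 and 0.92.

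Nr1d1 had 82.3, 94.8 and 77.7 CPM in tKO hepatocytes 7 to 9, 92.9, 92.8 and 80.3 CPM in dKO hepatocytes 4 to 6, and 42.9, 43.9 and 47.6 CPM in WT hepatocytes 1 to 3. All dKO and tKO values lay well above all WT values, and the dKO and tKO ranges overlapped. The log2 fold change was 0.99 ± 0.0677 for dKO against WT (SE; edgeR adjusted p = 1.98e-20) and 0.92 ± 0.0678 for tKO against WT (edgeR adjusted p = 3.63e-19), and tKO and dKO differed by −0.06 ± 0.0613 (edgeR adjusted p = 0.486). With the spread of the liver libraries the adjusted p of the likelihood ratio test was 0.00107 for dKO and 0.00261 for tKO against WT. The overlapping gene Thra had only 6.51 ± 1.22 CPM in tKO, 7.05 ± 1.31 CPM in dKO and 5.40 ± 0.584 CPM in WT hepatocytes (SD, n = 3 each).

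**Figure D4:**
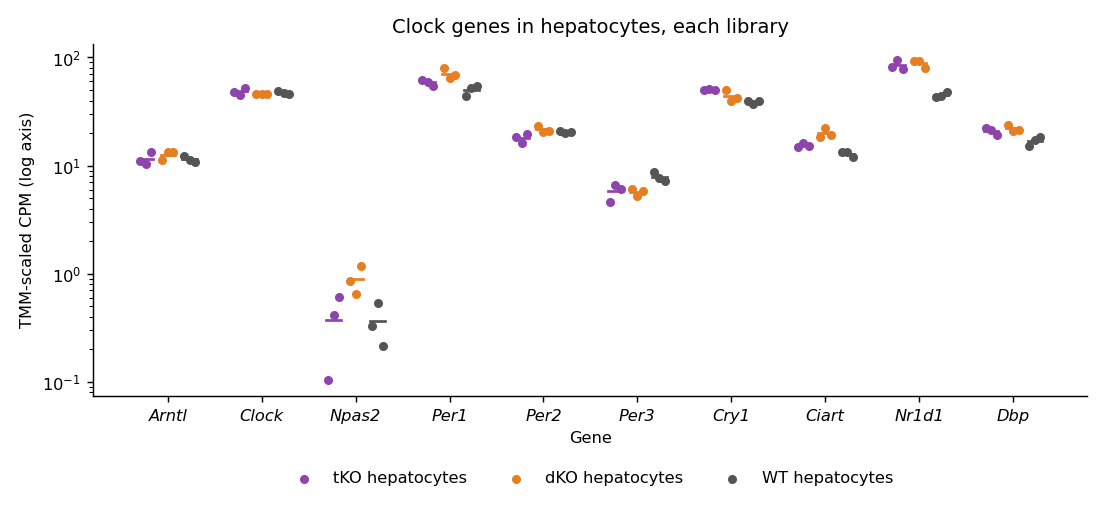
Level of each clock gene in each hepatocyte library, in TMM-scaled CPM on a log axis, with tKO in purple, dKO in orange and WT in grey, and the group mean as a short line. Nr1d1 shows the widest gap, with tKO and dKO libraries at 77.7 to 94.8 CPM and WT libraries at 42.9 to 47.6 CPM.

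Dbp had 22.5, 21.4 and 19.1 CPM in tKO, 23.9, 21.1 and 21.6 CPM in dKO, and 15.2, 17.1 and 18.5 CPM in WT hepatocytes. Both knockout groups lay above WT with no overlap, by little in tKO9. Its log2 fold change was 0.39 ± 0.101 in dKO (edgeR adjusted p = 0.000958) and 0.31 ± 0.101 in tKO (edgeR adjusted p = 0.00838). In tKO it was not called without WT1, without tKO7 or by DESeq2 (adjusted p = 0.0606). Sphk2, which overlaps Dbp, was itself higher in tKO than in WT, by 0.23 ± 0.0793 on the log2 scale (edgeR adjusted p = 0.0110), but not called in dKO against WT, at 0.04 ± 0.0817 (edgeR adjusted p = 0.755). It averaged 35.8 ± 2.30 CPM in tKO, 31.2 ± 1.83 CPM in dKO and 30.4 ± 1.38 CPM in WT hepatocytes (SD, n = 3 each), above Dbp in every group. Part of the Dbp counts may therefore belong to Sphk2, and the size of that part was not tested.

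Among the repressors, Per1 had 62.4, 59.9 and 54.7 CPM in tKO, 79.4, 65.1 and 68.7 CPM in dKO, and 44.3, 52.4 and 54.5 CPM in WT hepatocytes. The order was dKO above tKO above WT with no overlap, although tKO9 and WT3 nearly met. The log2 fold change was 0.50 ± 0.0706 for dKO against WT (edgeR adjusted p = 2.30e-08), 0.23 ± 0.0720 for tKO against WT (edgeR adjusted p = 0.00719) and −0.27 ± 0.0684 for tKO against dKO (edgeR adjusted p = 0.00152). Leaving out WT1 or tKO7 ended the tKO call against WT, and leaving out dKO4 ended the call of tKO against dKO.

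Ciart had 14.96, 16.02 and 15.25 CPM in tKO, 18.5, 22.2 and 19.3 CPM in dKO, and 13.3, 13.4 and 12.0 CPM in WT hepatocytes. Here too dKO lay above tKO and tKO above WT without overlap. Ciart rose in dKO by 0.63 ± 0.110 on the log2 scale against WT (edgeR adjusted p = 1.09e-06), and was lower in tKO than in dKO, at −0.38 ± 0.105 (edgeR adjusted p = 0.00349), a call lost without dKO5. The tKO value against WT, 0.26 ± 0.114, missed the threshold (edgeR adjusted p = 0.0561) and passed it with scaling by library totals (0.0319).

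Cry1 had 49.7, 51.5 and 49.7 CPM in tKO, 49.97, 39.87 and 42.27 CPM in dKO, and 39.4, 36.9 and 39.4 CPM in WT hepatocytes. The tKO values were tight and all above WT, whereas dKO4 reached the tKO range and the other dKO libraries lay just above WT. Its log2 fold change was 0.38 ± 0.0728 for tKO against WT (edgeR adjusted p = 6.28e-06), 0.19 ± 0.0748 for dKO against WT (edgeR adjusted p = 0.0298) and 0.19 ± 0.0711 for tKO against dKO (edgeR adjusted p = 0.0323). The dKO call was lost without WT2, without dKO4 or with DESeq2 (adjusted p = 0.118), and the call between tKO and dKO without dKO5, dKO6, tKO8 or tKO9 or with DESeq2 (adjusted p = 0.147).

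Per2 had 18.5, 16.2 and 19.7 CPM in tKO, 23.4, 20.6 and 20.8 CPM in dKO, and 20.9, 20.1 and 20.3 CPM in WT hepatocytes. All tKO values lay below all others. Only the difference between tKO and dKO was called, at −0.25 ± 0.0980 (edgeR adjusted p = 0.0426), and 9 of 16 alternatives ended that call: leaving out WT2, dKO4, tKO7 or tKO8, DESeq2, scaling by library totals, no filter on low counts, a fit of only these 2 groups, and the spread of the liver libraries. Per3 was the member that fell against WT in both knockouts, with 4.64, 6.55 and 6.10 CPM in tKO, 6.09, 5.27 and 5.82 CPM in dKO, and 8.66, 7.67 and 7.26 CPM in WT hepatocytes. No knockout library reached the WT range, with a log2 fold change of −0.46 ± 0.169 in dKO (edgeR adjusted p = 0.0219), lost without WT1 or dKO5 or with DESeq2 (adjusted p = 0.108), and −0.45 ± 0.167 in tKO (edgeR adjusted p = 0.0219), lost without WT1 or tKO7 or with DESeq2 (adjusted p = 0.105).

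The activators gave no call in hepatocytes. Arntl had 11.1, 10.3 and 13.4 CPM in tKO, 11.2, 13.2 and 13.5 CPM in dKO, and 12.4, 11.2 and 10.7 CPM in WT hepatocytes, with the 3 groups overlapping. Its log2 fold change was 0.14 ± 0.129 for dKO against WT (edgeR adjusted p = 0.392) and 0.02 ± 0.130 for tKO against WT (edgeR adjusted p = 0.903). Clock averaged 48.5 ± 3.41 CPM in tKO, 45.95 ± 0.391 CPM in dKO and 47.2 ± 1.46 CPM in WT hepatocytes (SD, n = 3 each), with edgeR adjusted p-values of 0.659 for tKO and 0.693 for dKO against WT. Npas2 had 1, 4 and 6 expected counts in tKO, 8, 6 and 11 in dKO and 3, 5 and 2 in WT hepatocytes, and was not tested.

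Per length, Nr1d1 stood first in every hepatocyte group, with 31.6 ± 3.20 FPKM in tKO, 32.5 ± 2.61 FPKM in dKO and 16.3 ± 0.938 FPKM in WT (SD, n = 3 each), and its range did not overlap that of the member next in order. Cry1 came second in tKO, at 17.1 ± 0.338 FPKM, and in WT, at 12.9 ± 0.490 FPKM. In dKO, Per1, Ciart, Cry1 and Dbp followed in that order, from 15.3 down to 13.7 FPKM, with each range overlapping the next. Clock, Arntl and Per2 lay between 5.08 and 3.17 FPKM in all 3 groups, followed by Per3 at 0.987 ± 0.174 FPKM in tKO, 0.960 ± 0.0721 FPKM in dKO and 1.31 ± 0.118 FPKM in WT. Npas2 was last, at 0.0933 FPKM in tKO, 0.217 FPKM in dKO and 0.0867 FPKM in WT.

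Within hepatocyte libraries the ratio of Dbp to Arntl in FPKM was 3.53, 3.69 and 2.53 in tKO, 3.79, 2.82 and 2.84 in dKO, and 2.18, 2.66 and 3.06 in WT. The ratio of Nr1d1 to Arntl was 6.08 to 9.68 in tKO, 6.27 to 8.71 in dKO and 3.64 to 4.66 in WT. The Dbp ratio overlapped between groups, while the Nr1d1 ratio parted WT from both knockouts. The ratio of Per2 to Cry1 was 0.162 to 0.204 in tKO, 0.240 to 0.266 in dKO and 0.264 to 0.280 in WT hepatocytes. Per length, Per3 stood at 0.987 FPKM beside 3.17 FPKM for Per2 in tKO, at 0.960 beside 3.72 FPKM in dKO, and at 1.31 beside 3.50 FPKM in WT hepatocytes. In liver, Per3 stood at 25.2 beside 35.1 TPM for Per2 in SMSrKO and at 21.6 beside 34.9 TPM in WT. The gene lengths behind these scales differ, for Per3 9608 bases in liver and 5996 in hepatocyte library WT1. These gaps are therefore comparable only within liver or within hepatocytes. The liver and hepatocyte experiments also differ in tissue and processing and may differ in diet and age, so differences between them cannot be told apart by source.

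The wider clock list of 16 genes gave 0 calls in liver by edgeR, with a median log2 fold change of 0.05 against −0.01 over all genes. At an unadjusted p under 0.05 in edgeR stood 5 genes, beside 13.1% of all genes. DESeq2 called 1, Tef, beside 2.83% of all genes. Tef, a relative of Dbp that binds the same D-boxes, averaged 308 ± 19.3 CPM in SMSrKO and 253 ± 13.1 CPM in WT livers, without overlap (log2 fold change 0.28 ± 0.0913; edgeR adjusted p = 0.232). Nfil3, a repressor at D-boxes, averaged 15.3 ± 2.97 CPM in SMSrKO and 24.6 ± 5.97 CPM in WT livers, also without overlap (edgeR adjusted p = 0.191). Of 15 tested in hepatocytes, 9 were higher and 1 lower in dKO than in WT, with a median of 0.21 against −0.01 over all genes, and 5 were higher and 2 lower in tKO than in WT, with a median of −0.02 against 0.00. These counts stand beside 44.0% of all genes called in dKO, 24.0% higher and 20.0% lower, and 47.4% in tKO, 25.6% higher and 21.8% lower, so that the tKO share was near that of all genes. Nr1d2, the paralog of Nr1d1 that encodes REV-ERBβ, rose to 150 ± 5.09 CPM in dKO and 139 ± 9.75 CPM in tKO, against 106 ± 5.93 CPM in WT hepatocytes (log2 fold changes 0.50 ± 0.0515 and 0.40 ± 0.0517). Rora, an activator at the elements that REV-ERB proteins also bind, rose by 0.53 ± 0.0570 in dKO and 0.32 ± 0.0578 in tKO on the log2 scale. Tef fell by 0.35 in dKO and by 0.49 in tKO on the log2 scale, opposite in sign to Dbp in the same comparisons. Between tKO and dKO, 1 of the 15 genes was higher and 6 were lower in tKO, beside 14.3% and 15.2% of all genes, among the lower Bhlhe40 (−0.26 ± 0.0367), a repressor at E-boxes, Cry2 (−0.31 ± 0.0699) and Nfil3 (−0.27 ± 0.0597).

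Of 13 genes known as clock-controlled in liver, 0 were called in liver by edgeR or DESeq2. At an unadjusted p under 0.05 in edgeR stood 2 of the 13, beside 13.1% of all genes, a share near that background. Of 12 tested in hepatocytes, 7 were higher and 2 lower in dKO than in WT (median log2 fold change 0.40), 5 were higher and 2 lower in tKO than in WT (median 0.17), and 1 was higher and 6 lower in tKO than in dKO (median −0.12), beside 44.0%, 47.4% and 29.5% of all genes called in these comparisons in either direction. Noct, which encodes the rhythmic protein nocturnin, rose to 144 ± 5.41 CPM in dKO and 139 ± 6.25 CPM in tKO, against 58.4 ± 2.46 CPM in WT hepatocytes. Rgs16, a regulator of G-protein signalling, rose by 1.004 ± 0.0805 in dKO on the log2 scale against WT, and was lower in tKO than in dKO by 0.73 on the log2 scale (log2 fold change −0.73 ± 0.0771). Nampt, the enzyme that limits NAD synthesis, rose by 0.52 ± 0.0403 in dKO and 0.34 ± 0.0405 in tKO, and Wee1, a cell-cycle kinase gene with E-boxes in its promoter, fell by 0.45 in dKO and by 0.42 in tKO on the log2 scale. Cyp7a1, the rate-limiting enzyme of bile acid synthesis, rose by 0.86 ± 0.339 in dKO and 1.29 ± 0.316 in tKO, while Avpr1a, a vasopressin receptor gene, fell by 0.78 in tKO against WT. All changes so described had an edgeR adjusted p under 0.05 over all genes, and both lists were drawn up with earlier results of these data known.

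**Figure D5:**
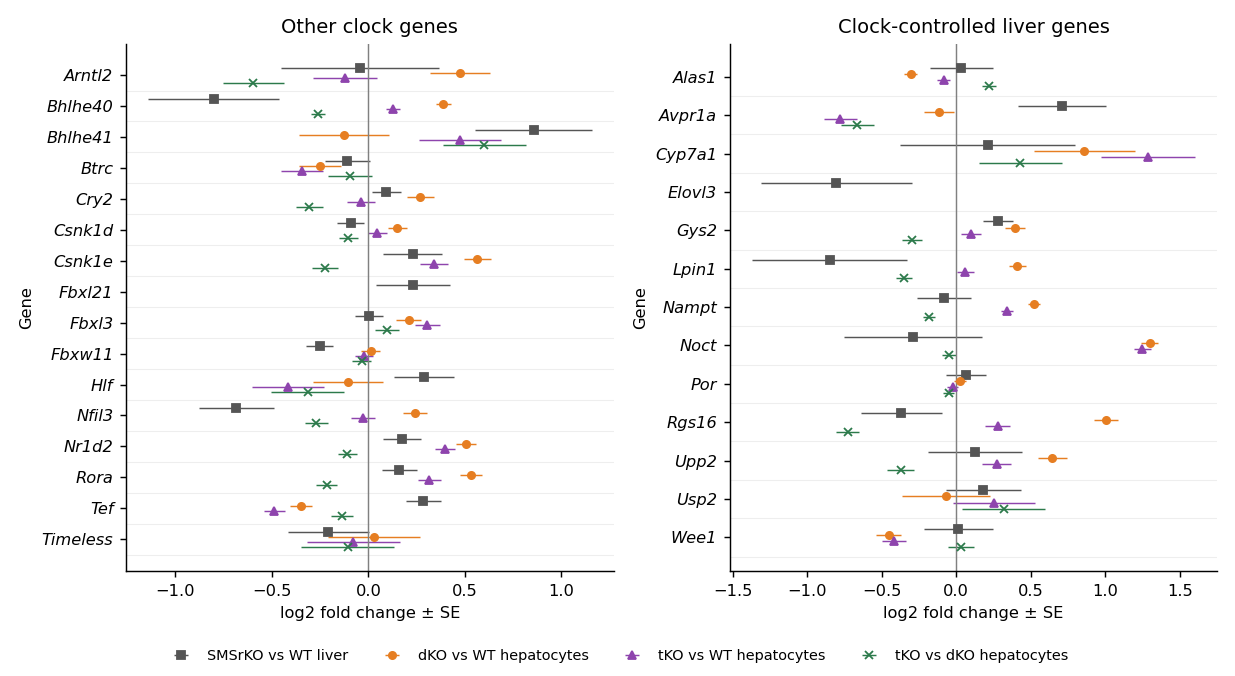
log2 fold change with standard error of 16 further clock genes (left) and 13 clock-controlled liver genes (right) in the 4 comparisons, the symbols being named in the legend; a missing symbol means that the gene was not tested there. In hepatocytes Noct lies at 1.298 and 1.249 for dKO and tKO against WT.

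Several other gene groups differed between the hepatocyte genotypes. The counts of calls below stand beside 24.0% of all genes called higher and 20.0% called lower in dKO against WT. In tKO against WT, 25.6% of all genes were called higher and 21.8% lower. Endothelial markers summed to 121 to 131 CPM in tKO, 210 to 227 CPM in dKO and 35.5 to 40.3 CPM in WT hepatocytes, with 12 of 12 called higher in dKO and 11 of 12 in tKO against WT. Macrophage markers summed to 364 to 384 CPM in tKO, 326 to 343 CPM in dKO and 122 to 137 CPM in WT, with all 6 tested of 12 called higher in both, and stellate and fibroblast markers to 35.2 to 39.3 CPM in tKO, 59.3 to 64.6 CPM in dKO and 16.5 to 20.4 CPM in WT, with 5 of 6 tested called higher in both. Between tKO and dKO, 1 of the 6 macrophage markers was called higher in tKO and 2 lower, with a median log2 fold change of −0.71. The higher one was Cd68, at 248 ± 16.7 CPM in tKO and 201 ± 5.96 CPM in dKO. In that comparison 14.3% of all genes were called higher and 15.2% lower. Inflammatory mediators summed to 5152 to 5287 CPM in tKO, 7051 to 7276 CPM in dKO and 1917 to 2032 CPM in WT, with 11 of 11 tested called higher in both. Immediate early genes, which respond to cell isolation among other stimuli and share that trait with Per1, summed to 3595 to 3642 CPM in tKO, 3458 to 3560 CPM in dKO and 2325 to 2491 CPM in WT, with 19 of 22 called higher in tKO and 20 of 22 in dKO. Genes that respond to glucocorticoids and fasting summed to 4939 to 5703 CPM in tKO, 7611 to 8284 CPM in dKO and 8324 to 8614 CPM in WT, with 8 of 16 called higher and 5 lower in tKO, and 10 higher and 2 lower in dKO. Cholangiocyte markers summed to 258 to 271 CPM in tKO, 389 to 408 CPM in dKO and 266 to 276 CPM in WT, with 1 of 4 tested called higher in both, 1 lower in dKO and 2 lower in tKO. Adipocyte markers summed to 15.1 to 17.3 CPM in tKO, 19.2 to 22.1 CPM in dKO and 10.9 to 12.1 CPM in WT. Of the 8 adipocyte markers Adipoq, Cfd, Lep and Retn were not listed in any hepatocyte library, while Fabp4, which endothelial cells and macrophages also express, was called higher in both knockouts, at 10.3 ± 1.81 CPM in tKO and 13.1 ± 1.46 CPM in dKO against 3.37 ± 0.855 CPM in WT. Hepatocyte markers summed to 49801 to 52321 CPM in tKO, 56206 to 57369 CPM in dKO and 65812 to 67139 CPM in WT hepatocytes. Of the 10 markers, 2 were called higher and 5 lower in tKO, and 1 higher and 5 lower in dKO, against WT. Alb alone averaged 37624 ± 838 CPM in tKO and 48739 ± 907 CPM in WT, so these sums mostly follow Alb. The part of these cell-type and stress signals, or of the hour of isolation, in the clock-gene differences was not tested.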

How the data were processed

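RNA was measured in 8 liver and 9 hepatocyte libraries, 4 and 3 per group, grouped by genotype from the labels. The authors deposited whole-number counts per Ensembl gene for liver, together with a TPM table that could be recomputed from the counts and gene lengths within 5e-05. For hepatocytes the authors deposited expected counts and FPKM per Entrez gene; 6.25% of them had a fractional part, so every value was rounded to a whole number. Per the submitters' processing notes, the builds were GRCm38 and mm10 and the tools Trimmomatic 0.36, Bowtie2 2.2.5, STAR 2.5.2b and DESeq2 1.30.1; the role of each, the counter and the strand setting: not given in the sources used here.

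From the counts, edgeR 4.0.16 in R 4.3.3 was run on the liver libraries and on all 9 hepatocyte libraries, with filterByExpr (minimum count 10), TMM scaling, the robust quasi-likelihood test and Benjamini-Hochberg adjustment over all genes tested (15820 and 11471), with a threshold of 0.05. SE is that of the log2 fold change. CPM is TMM-scaled, and a list's sum is over its members' CPM. TPM and FPKM served for levels between genes. Alternatives were DESeq2 1.42.0, other scalings, no filter, leaving out each library, and in hepatocytes the common dispersion of the liver libraries, WT1 included. The fit with that dispersion gave every gene the same spread and used edgeR's likelihood ratio test in place of the quasi-likelihood test. The tests were checked on simulated data. Positions are from GENCODE M21 (GRCm38), matched by Ensembl identifier. Promoter windows are from RefSeq (GRCm38.p6), and motifs were matched on both strands; the E-prime box was added after the windows were seen. The rule for showing windows (called at 2-fold) was met by 0 members. The members and the 12 gene lists were chosen with earlier results of these data known. Named beside the members were up to 4 genes of the wider clock and clock-controlled lists per comparison with the smallest p, and up to 2 of other lists; Cyp7a1 was named after its values were seen. A gene of the wider clock list is not reported here, and the counts over that list leave it out.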

Additional observations from a re-analysis of the deposited data

Results flagged for a closer look

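In liver, Npas2 had 0.03763 CPM in library WT3, a single count, far below the 0.24 to 0.27 CPM of the other WT livers relative to the spread of that group. Of 20 sets of 4 liver libraries examined this way, 1 was picked out, and chance picks out about 1 in 20.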

How the results depend on the processing

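In liver, the number of clock genes called was 0 in the fit reported, 3 with DESeq2, 1 without the filter on low counts, and 0 to 1 on leaving out single libraries, the 1 being Dbp without WT1. In dKO against WT hepatocytes it was 6, with 4 by DESeq2 (Cry1 and Per3 lost) and 1 with the liver dispersion; leaving out single libraries gave 5 to 6, and the number at 2-fold was 0 to 1 (Nr1d1, without WT3 or dKO6). In tKO against WT it was 5, with 3 by DESeq2, 1 with the liver dispersion and 2 to 5 on leaving out single libraries, the 2 without WT1 or tKO7. In tKO against dKO it was 4, with 2 by DESeq2, 0 with the liver dispersion and 2 to 4 on leaving out single libraries, the 2 without dKO4, dKO5 or tKO8. Over all genes, DESeq2 called 460 of 16261 in liver and 4091 of 13797 in dKO against WT. It called 4446 of 13494 in tKO against WT and 2303 of 12284 in tKO against dKO. With the liver dispersion, 9.20% of all genes were called in dKO against WT, 10.6% in tKO against WT and 2.84% in tKO against dKO. In liver, 136 of 29594 genes were called without the filter and 109 of 15988 without WT1. The cause of the shifts in number was not tested.

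Of the single-gene values over all alternatives, 491 kept their direction and side of the threshold, 42 lost a call, 6 gained one and 10 turned sign, none of those 10 called. The results that turned sign in some alternative were positive in the fit reported. On leaving out single libraries, the highest log2 fold changes of these results were 0.177 for Per2 and 0.970 for Ciart in liver, 0.0997 for Arntl and 0.0871 for Clock in tKO against WT, and 0.143 for Per3 in tKO against dKO. The turned values were, for Per2 in liver, −0.00956 with library totals, −0.0188 without WT2 and −0.0114 without SMSrKO5; for Ciart in liver −0.00326 without WT2; for Arntl in tKO against WT −0.0228 without WT3 and −0.0954 without tKO9; for Clock in tKO against WT −0.0131 without tKO9; and for Per3 in tKO against dKO −0.0459 without dKO5, −0.0903 without tKO8 and −0.0314 without tKO9. Scaling by library totals put 15 of 39 liver calls higher in SMSrKO, against 19 of 37 in the fit reported. No paired analysis was possible because the groups compared share no replicate numbers in the labels. Depth limits Npas2, with 1 to 22 counts per library.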
